A study of Mus musculus with 17 samples.

Results

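Genes of fatty acid synthesis were examined in colon of mice given the PXR ligand pregnenolone 16α-carbonitrile (PCN) or corn oil. The 10 genes were taken by name as a pathway, not by a cut on their values, but with earlier results of these data known: Fasn, Acly, Acaca, Scd1, Scd2, Elovl6, Thrsp, Me1, Srebf1 and Pnpla3. All 10 were found, on 21 of the 56605 probes of an Agilent one-colour mouse array, which carries 37325 gene or transcript names. Where a gene had several probes, the one with the highest mean in the authors' value table stood for it, and the others are given beside it. The samples were 17 colons of male C57Bl6/J mice, 1 array each. WT CONT (4 arrays) and WT PCN (4 arrays) were wild-type mice bought at 6 weeks of age. The study acclimatized the mice for 2 weeks before allocation and names no genotype for that step. Pxr-/- CONT (5 arrays) and Pxr-/- PCN (4 arrays) carried a null allele of Pxr, had been backcrossed to C57Bl/6J and came from a colony bred in-house for 10 years, with no age stated in the sources used here. Genotype and colony can therefore not be told apart. PCN mice had received 100 mg/kg in corn oil by intraperitoneal injection each day for 4 days, and CONT mice corn oil alone. Values are listed in order of the labels' replicate numbers, which run from 2 to 5 in WT CONT and from 1 in the other groups. They were killed 6 h after the last injection, at ZT6. Food was freely available, and the study describes mice at that hour of the light phase as semi-fasted. The sources describe 6 mice allocated to each group, and the labels number the samples without naming the animal, so p-values measure the spread between these samples.

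De novo lipogenesis turns carbon from sugar and amino acids into fat. ATP-citrate lyase (Acly) releases acetyl-CoA from citrate, acetyl-CoA carboxylase (Acaca) makes malonyl-CoA from it, and fatty acid synthase (Fasn) builds palmitate with NADPH that comes in part from malic enzyme (Me1). Elovl6 lengthens palmitate to stearate, and the stearoyl-CoA desaturases Scd1 and Scd2 make palmitate and stearate monounsaturated. Srebf1 encodes SREBP-1, the transcription factor that drives these genes in the fed state, Thrsp is a small lipogenic protein induced by thyroid hormone and carbohydrate, and Pnpla3 is a lipid droplet protein under SREBP-1 control. PXR is a xenobiotic receptor best known in liver, where its activation can change lipid storage.

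The arrays were of even quality, with 61.0% to 69.7% of probes well above background, a median background of 20 to 28 intensity units and 0 saturated spots. The number of arrays limits the precision. Profiles that carry different labels were close to identical in 2 pairs of arrays. WT PCN 3 and Pxr-/- CONT 2 differed with an SD of 0.20 log2 units over probes, and WT PCN 4 and Pxr-/- PCN 2 with an SD of 0.17, while the other 134 of 136 pairs of arrays gave 0.30 to 0.62. No lipogenic gene differed by more than 0.20 within these pairs, whereas in any other pair at least 1 gene differed by 0.27 or more. Comparisons are therefore given over all 17 arrays, and also without these 4 where that bears on a value, which leaves 2 WT PCN, 4 Pxr-/- CONT and 3 Pxr-/- PCN arrays. The arrays were washed in 2 baths. Bath 1 held 2 WT CONT, 3 WT PCN, 2 Pxr-/- CONT and 2 Pxr-/- PCN arrays, and bath 2 held 2, 1, 3 and 2. Any value within bath 2 that uses WT PCN therefore rests on 1 array, WT PCN 1, whose spread is assumed to be that of the other groups, and such a value cannot show that a difference turned with the bath. Log2 signals of Nr1i2, the mouse gene for PXR, ran from 11.97 to 12.31 in WT CONT, 11.10 to 12.44 in WT PCN, 10.39 to 11.61 in Pxr-/- CONT and 10.95 to 11.93 in Pxr-/- PCN. WT PCN thus overlapped both null groups, and whether this probe lies in the deleted part is not known, so it gives no check of the genotype labels. The mean of 8 colonocyte genes such as Slc26a3 and Vil1 stood between 14.6 and 15.2 on every array, so the markers of the labelled tissue were present throughout. Bulk tissue was measured, so that fewer cells of a type and less RNA per cell cannot be told apart.

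No fatty acid synthesis gene passed FDR ≤ 0.05 with a fold change over 1.5 in any comparison. This was tested with limma over 38703 probes, of which 0% passed in WT mice given PCN, 0.00517% in Pxr-/- mice given PCN, and 0% between genotypes under either treatment and for the interaction. At an unadjusted p under 0.05, PCN in WT gave 1 of 10 genes lower (Thrsp) and 1 higher (Elovl6), against 2.17% of all probes lower and 2.49% higher. PCN in Pxr-/- gave 2 lower (Thrsp and Fasn) and 0 higher, against 3.95% and 3.4% of all probes. Neither genotype comparison gave any, against 12.7% of all probes in CONT mice and 3.28% in PCN mice. The interaction gave 2 (Elovl6 and Me1) against 5.38%. By sign alone, 7 of 10 genes were lower with PCN in WT, with a median log2 difference of -0.08. By the probe that stood for each gene, all 10 were lower with PCN in Pxr-/-, with a median of -0.21. The medians over all probes were within 0.01 of 0. Smooth muscle genes moved the same way in Pxr-/-, where 6 of 6 (Acta2, Actg2, Cnn1, Des, Myh11 and Smtn) were lower by sign and 4 at an unadjusted p under 0.05, with a median of -0.45 over all arrays and -0.48 without the near-identical ones, where 2 qualified. Their mean log2 signal was 14.74 to 15.35 in Pxr-/- CONT, 14.45 to 14.95 in Pxr-/- PCN, 14.63 to 15.41 in WT CONT and 14.75 to 15.23 in WT PCN, with 5 of 6 higher by sign with PCN in WT. Their part in the differences of the fatty acid genes was not tested. Without the 4 near-identical arrays, again none of the 10 passed, against 0.0491% of probes for PCN in WT, 0.0517% in Pxr-/-, 0% between genotypes in CONT mice, 0.0207% in PCN mice and 0.00258% for the interaction. At an unadjusted p under 0.05 there were then 2 for PCN in WT (Thrsp and Elovl6, 4.68% of probes), 2 in Pxr-/- (Thrsp and Me1, 7.19%), 0 between genotypes in CONT mice (10.1%), 2 in PCN mice (Fasn and Elovl6, 7.56%) and 1 for the interaction (Elovl6, 2.95%). By sign, 4 of 10 were lower in WT with a median of 0.10, and 9 of 10 in Pxr-/- with a median of -0.25. The sign of the WT median therefore depended on those arrays.

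**Figure D1:**
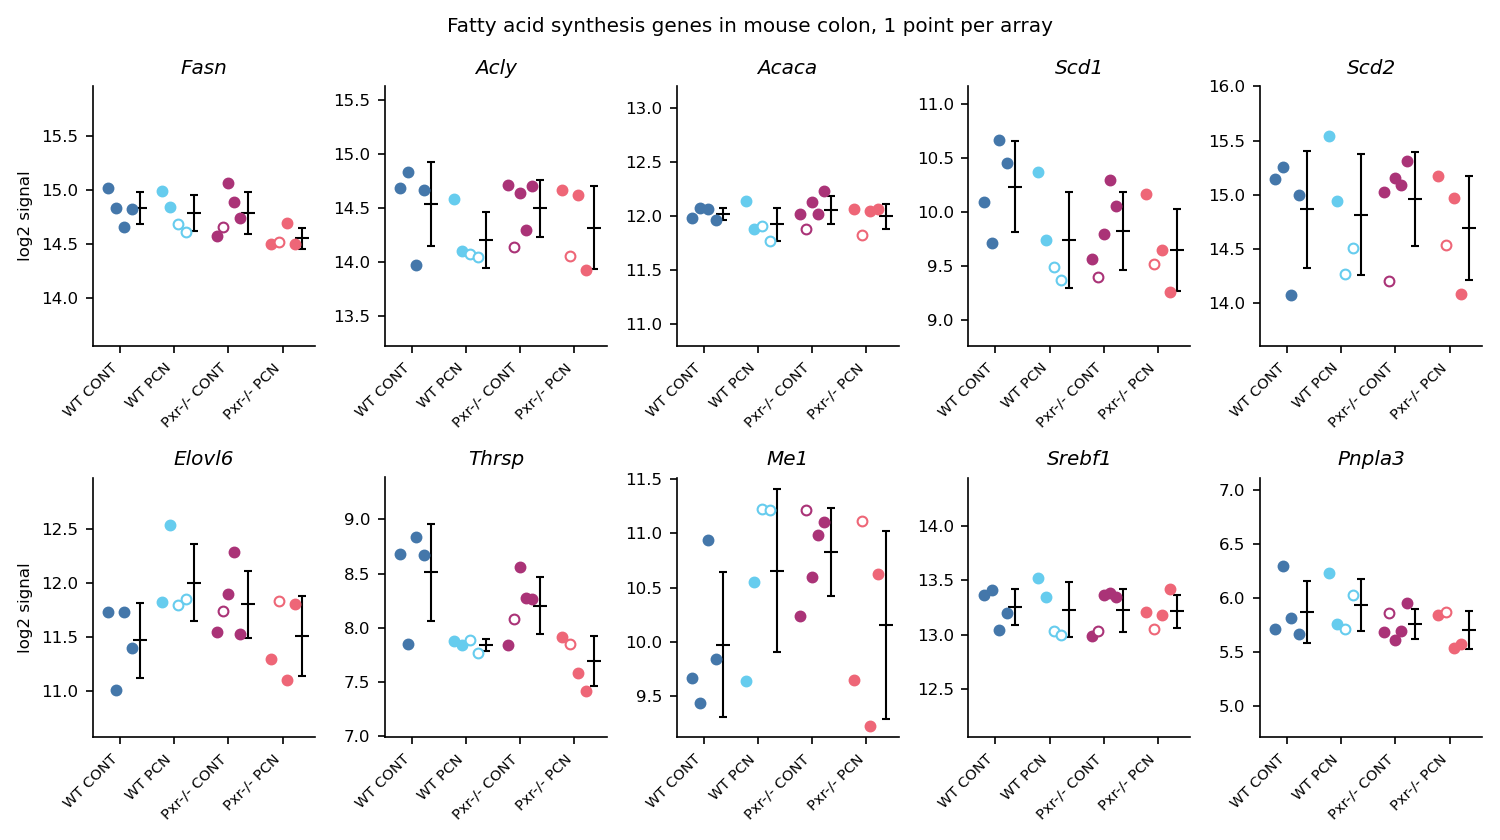
Log2 signal (y axis, the same span of 2.4 units in each panel) of the 10 genes on each of 17 arrays, by group, with open circles for the 4 near-identical arrays and black bars for the mean ± SD of each group. Acaca, Fasn and Srebf1 vary little, Me1 varies most, Thrsp sits at or below 7.91 on all 8 PCN arrays, and Elovl6 is the one gene whose WT CONT and WT PCN points do not overlap.

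By limma on the main probes, Thrsp was the gene with the smallest p under PCN in both genotypes. Its main probe lies from base 796 of transcript NM_009381 (mm9 chr7:104561649-104561708, minus strand), and a second probe lies from base 399 of the same transcript. The first 30 of the 60 bases of each, as the scanner files write them, show which part of the message was read.
Thrsp main probe: aaagcagggatgctgtatctacctcacacg
Thrsp second probe: gacccggaaagcacaggaggtgacgcggaa
In WT CONT the log2 signal was 8.68, 7.85, 8.84 and 8.67, and in WT PCN it was 7.88, 7.84, 7.88 and 7.77. The 4 WT PCN arrays lay within 0.12 of each other, and WT CONT 3 sat among them while the other WT CONT arrays were above 8.6. In Pxr-/- CONT it was 7.84, 8.08, 8.56, 8.28 and 8.27, and in Pxr-/- PCN 7.91, 7.85, 7.59 and 7.42. Here too the groups overlapped through 1 control array, Pxr-/- CONT 1. PCN gave a log2 difference of -0.67 in WT (SE 0.20, limma unadjusted p = 0.0044, adjusted p = 0.956) and of -0.51 in Pxr-/- (SE 0.19, unadjusted p = 0.0148, adjusted p = 0.574). The exact two-sided permutation p, one of 40 such tests and not adjusted, was 0.0857 in WT and 0.0317 in Pxr-/-. The second probe gave -0.57 and -0.48 and followed the first with r = 0.96 over the 17 arrays. Without the near-identical arrays the differences were -0.65 and -0.61, with exact p = 0.267 and 0.0857. Leaving out 1 array at a time gave -0.94 to -0.56 in WT and -0.61 to -0.40 in Pxr-/-. Within washing baths 1 and 2 the difference was -0.44 and -0.88 in WT, the latter on 1 WT PCN array, and -0.70 and -0.40 in Pxr-/-. The interaction was 0.15 with a 95% interval of -0.42 to 0.73 (0.05 without the near-identical arrays), which leaves room for a larger or smaller response in either genotype. Among CONT mice Thrsp was lower in Pxr-/- by a log2 difference of -0.31 (SE 0.19, limma unadjusted p = 0.119), which was 0.15 within bath 1 and -0.69 within bath 2.

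Elovl6 and Me1 had the largest interactions of PCN and genotype. The stretch of each main probe is shown because these readings rest on 1 probe for Elovl6 (mm9 chr3:129337756-129337815, plus strand, from base 2293 of NM_130450) and on 2 that correlated at r = 0.98 for Me1 (main probe mm9 chr9:86475077-86475136, minus strand, from base 3168 of NM_001198933).
Elovl6 probe: atttgaccaaatcagaagagagagagaacc
Me1 main probe: cctaatgacaacttgtgactaacggtttct
Elovl6 measured 11.74, 11.01, 11.73 and 11.40 in WT CONT and 11.82, 12.53, 11.80 and 11.86 in WT PCN. Every WT PCN array was above every WT CONT array, a separation that 2.64% of all probes showed in this comparison, and the exact permutation p of 0.0286 is the smallest that 4 against 4 can give. In Pxr-/- CONT it was 11.55, 11.74, 11.90, 12.29 and 11.53, and in Pxr-/- PCN 11.30, 11.84, 11.10 and 11.80, and these groups overlapped. The log2 difference for PCN was 0.50 in WT (SE 0.23, limma unadjusted p = 0.0467, adjusted p = 0.956) and -0.31 in Pxr-/- (SE 0.22, adjusted p = 0.821). The interaction was -0.81 (SE 0.32, unadjusted p = 0.0219, adjusted p = 0.848), and it was -1.31 within bath 1 and, with 1 WT PCN array, -0.32 within bath 2. Leaving out WT CONT 3 took the WT difference to 0.29 and leaving out WT PCN 2 to 0.34, while other single arrays left it at 0.48 to 0.61. In Pxr-/- it was -0.14 without Pxr-/- PCN 3 and -0.18 without Pxr-/- CONT 4. Without the near-identical arrays the interaction was -1.11 and PCN in WT gave 0.71, still with no overlap, against 11.2% of all probes without overlap between groups of that size. The exact p was then 0.133, and 0.0667 is the smallest that 2 against 4 can give. Between genotypes, Elovl6 differed by 0.35 in CONT mice (SE 0.22, adjusted p = 0.517) and by -0.46 in PCN mice (SE 0.23, adjusted p = 1.00), the latter being -0.76 without the near-identical arrays (adjusted p = 0.625).

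Me1 had the widest range of the 10 genes, 2.00 log2 units over the 17 arrays. It measured 9.67, 9.43, 10.94 and 9.84 in WT CONT, 9.64, 10.55, 11.23 and 11.22 in WT PCN, 10.24, 11.21, 10.60, 10.98 and 11.10 in Pxr-/- CONT, and 9.65, 11.12, 9.22 and 10.63 in Pxr-/- PCN. The 4 highest readings were those of the 4 near-identical arrays, and WT CONT 4 stood apart from the other 3 WT CONT arrays. The log2 difference for PCN was 0.68 in WT (SE 0.46, adjusted p = 0.956) and -0.68 in Pxr-/- (SE 0.43, adjusted p = 0.794), with an interaction of -1.35 (SE 0.63, unadjusted p = 0.0481, adjusted p = 0.848). Within bath 1 the WT difference was 1.45 and the interaction -2.07. Within bath 2 they were -0.75 and 0.04, on 1 WT PCN array against WT CONT 4 and 5, the arrays with the highest pancreas and liver means respectively. Leaving out 1 array at a time gave 0.45 (without WT CONT 3) to 1.16 (without WT PCN 1) in WT, and in Pxr-/- the difference was -0.35 without Pxr-/- PCN 3. Without the near-identical arrays PCN gave 0.12 in WT, -0.94 in Pxr-/- and an interaction of -1.06. In CONT mice, Me1 was higher in Pxr-/- than in WT by 0.86 (SE 0.43, limma unadjusted p = 0.0655, adjusted p = 0.424, exact permutation p = 0.0556), and the second probe gave 0.82. This did not pass the test either, nor without the near-identical arrays (0.76).

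The 3 enzymes that carry citrate to palmitate varied to different extents. Fasn was steady, with log2 signals of 15.02, 14.83, 14.66 and 14.83 in WT CONT, 14.99, 14.84, 14.69 and 14.61 in WT PCN, 14.57, 14.66, 15.06, 14.89 and 14.74 in Pxr-/- CONT, and 14.50, 14.52, 14.69 and 14.50 in Pxr-/- PCN. The Pxr-/- PCN arrays were at the low end, and Pxr-/- PCN 3 alone reached into the range of their controls above 14.57. The difference for PCN in Pxr-/- was -0.24 (SE 0.10, limma unadjusted p = 0.0304, adjusted p = 0.637), or 1.18-fold lower, with an exact permutation p of 0.0556. It was -0.37 and -0.16 within baths 1 and 2 and -0.22 without the near-identical arrays. Under PCN, Pxr-/- was lower than WT by -0.20 on this scale (SE 0.11, adjusted p = 1.00), and without the near-identical arrays by -0.32 with no overlap, which 19.1% of all probes showed there. In WT the PCN difference was -0.08 with a 95% interval of -0.31 to 0.15 (0.08 without the near-identical arrays), so that a difference of 1.5-fold lay outside the interval.

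Acly fell into a low and a high set of arrays that did not follow the groups. The values were 14.69, 14.83, 13.97 and 14.67 in WT CONT, 14.59, 14.10, 14.08 and 14.05 in WT PCN, 14.71, 14.14, 14.64, 14.29 and 14.70 in Pxr-/- CONT, and 14.66, 14.06, 14.62 and 13.93 in Pxr-/- PCN. There were 8 arrays at or below 14.29 and 9 at or above 14.59, both sets with arrays of all 4 groups. The PCN difference in WT was -0.34 (SE 0.22, adjusted p = 0.956), -0.19 without the near-identical arrays and -0.68 within bath 1. Within bath 2 it was 0.27, on 1 WT PCN array. A second Acly probe correlated with the first at r = 0.84. With PCN it gave -0.20 in WT and 0.015 in Pxr-/-, where the main probe gave -0.18. Acaca, the first committed step, stayed between 11.77 and 12.23 on all 17 arrays. Its PCN interval was -0.27 to 0.11 in WT and -0.23 to 0.13 in Pxr-/-, and its 6 other probes gave PCN differences of -0.19 to 0.14 with the same outcome of no gene passing.

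The desaturases each varied by more than 1.4 log2 units. Scd1 measured 10.09, 9.71, 10.67 and 10.46 in WT CONT, 10.37, 9.74, 9.49 and 9.37 in WT PCN, 9.57, 9.40, 9.80, 10.29 and 10.05 in Pxr-/- CONT, and 10.17, 9.52, 9.64 and 9.26 in Pxr-/- PCN. All groups overlapped. The log2 difference was -0.43 for PCN in WT (SE 0.26, adjusted p = 0.956), and it was -0.18 without the near-identical arrays. For genotype in CONT it was -0.43 (SE 0.24, adjusted p = 0.467), with 0.14 in bath 1, -0.89 in bath 2 and -0.30 without the near-identical arrays. A second Scd1 probe was not well above background on any array. Scd2, the form that tissues other than liver commonly express, measured 15.15, 15.25, 14.07 and 14.99 in WT CONT, 15.54, 14.94, 14.27 and 14.51 in WT PCN, 15.03, 14.20, 15.16, 15.09 and 15.31 in Pxr-/- CONT, and 15.17, 14.54, 14.97 and 14.09 in Pxr-/- PCN. The low arrays were WT CONT 4, Pxr-/- PCN 4 and the 4 near-identical ones, all 6 of them at or below 14.54, and the remaining 11 were at or above 14.94. Its fitted differences were -0.08 with PCN in WT and -0.28 with PCN in Pxr-/-, with intervals of -0.81 to 0.65 and -0.96 to 0.40. The first becomes 0.38 without the near-identical arrays.

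Srebf1, which encodes the regulator, varied little. Its log2 signal ranged from 12.99 to 13.53 over the 17 arrays, with group means of 13.26, 13.23, 13.22 and 13.21 for WT CONT, WT PCN, Pxr-/- CONT and Pxr-/- PCN, and the 4 fitted differences lay between -0.03 and -0.01. The PCN interval was -0.33 to 0.27 in WT and -0.29 to 0.27 in Pxr-/-, and without the near-identical arrays the WT difference was 0.18 (SE 0.14). The array reads the message and not the cleavage that activates SREBP-1. Pnpla3 was dim, from 5.54 to 6.29, and well above background on 14 of 17 arrays. Under PCN its main probe gave -0.24 for Pxr-/- minus WT on the log2 scale (SE 0.15, adjusted p = 1.00), -0.13 in bath 1, -0.52 in bath 2 on 1 WT PCN array, and -0.35 without the near-identical arrays. Its probes disagreed. A second one, well above background on 9 arrays, gave -0.43 for PCN in Pxr-/- (limma unadjusted p = 0.00175, adjusted p = 0.400) where the main one gave -0.05, and the 2 correlated at r = -0.38. Counts of signs over the 10 genes use the main probe, and the probes of Pnpla3 do not settle its direction. Those of Acly differed in sign with PCN in Pxr-/-.

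**Figure D2:**
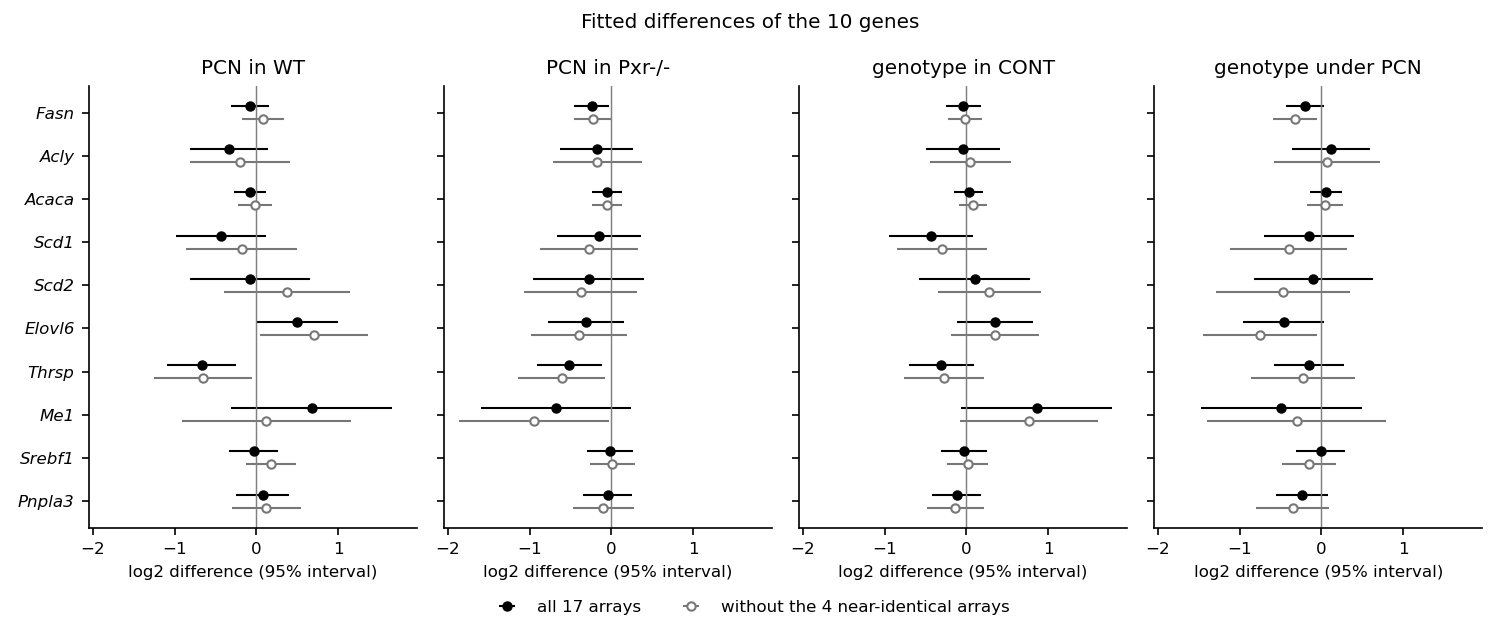
Fitted log2 differences (x axis, with 95% intervals) of the 10 genes (y axis) for PCN minus CONT in each genotype and for Pxr-/- minus WT under each treatment, from all 17 arrays (filled) and without the 4 near-identical ones (open). All points for PCN in Pxr-/- from 17 arrays lie left of 0, and Me1 in WT moves from 0.68 to 0.12 when the 4 arrays are left out.

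The start regions of Thrsp, Fasn and Elovl6 are shown to place them beside the SREBP-1 background given above. Thrsp and Fasn are the pair whose main probes had an unadjusted limma p under 0.05 for PCN in Pxr-/-. The sequences are the 250 bases before the gene start in RefSeq for GRCm38.p6, in the direction of the gene, and capitals mark the motifs found.
Thrsp (GRCm38.p6 chr7:97417551-97417800, minus strand): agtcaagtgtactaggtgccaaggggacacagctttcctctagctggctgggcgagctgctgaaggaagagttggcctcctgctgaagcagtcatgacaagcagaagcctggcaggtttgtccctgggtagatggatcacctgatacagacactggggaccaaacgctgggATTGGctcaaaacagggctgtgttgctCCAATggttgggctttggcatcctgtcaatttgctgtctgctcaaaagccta
Fasn (GRCm38.p6 chr11:120824548-120824797, minus strand): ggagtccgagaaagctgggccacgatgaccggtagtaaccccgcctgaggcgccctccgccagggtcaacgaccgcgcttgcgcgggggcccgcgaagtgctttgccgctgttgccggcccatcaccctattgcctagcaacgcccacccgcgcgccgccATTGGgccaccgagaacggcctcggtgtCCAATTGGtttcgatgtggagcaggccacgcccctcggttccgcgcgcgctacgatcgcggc
Elovl6 (GRCm38.p6 chr3:129532136-129532385, plus strand): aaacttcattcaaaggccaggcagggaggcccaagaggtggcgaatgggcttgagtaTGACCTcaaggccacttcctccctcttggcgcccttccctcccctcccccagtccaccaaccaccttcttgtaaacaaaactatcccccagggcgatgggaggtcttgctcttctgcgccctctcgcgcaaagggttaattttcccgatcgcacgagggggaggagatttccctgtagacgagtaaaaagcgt
Searched on both strands were the sterol response element TCACNCCAC, the E-box CACGTG, the CCAAT box, and the hexamers AGGTCA and AGTTCA of nuclear receptors. RefSeq held starts for 8 of the 10 genes, 11 starts in all, and Scd1 and Scd2 were not among them. Thrsp held 2 CCAAT boxes, and Fasn held 3, a pair of which overlap by 2 bases on opposite strands. The box was found at 6 of the 11 starts, from 5 genes, against 33.8% of 32851 starts of all genes. The sterol response element was found at 0 of 11 (1.05% of all starts), the E-box at 0 (6.02%), AGGTCA at 2 (14.0%), which were Acly and Elovl6, and AGTTCA at 1 (11.8%), which was Acaca. These are matches of letters in a short window, not binding sites.

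Genes around the pathway were described from 5 further lists, each by its number of genes at an unadjusted p under 0.05. Over all probes 2.17% were lower and 2.49% higher with PCN in WT, and 3.95% and 3.4% in Pxr-/-. In lists of 10 to 14 genes, a single such gene is too few to set against these shares. None of their genes passed FDR in any comparison with limma. Of 10 genes that supply acetyl-CoA and NADPH, 1 was lower with PCN in WT and 1 in Pxr-/-, and both times it was Aacs, which activates acetoacetate (-0.36, SE 0.15, and -0.47, SE 0.14). Without the near-identical arrays Aacs no longer qualified in WT (-0.22, SE 0.18). Of 14 elongation and desaturation genes, 0 qualified in WT and 1 in Pxr-/-, Fads3, a fatty acid desaturase family member (-0.52, SE 0.21). Without the near-identical arrays 1 was higher in WT, Elovl1 (0.28, SE 0.093), against 3.12% of all probes higher. Of 11 genes of acyl-CoA and glyceride assembly, 1 was higher in each genotype, and in WT it was Acsl4, which activates arachidonate (0.35, SE 0.15). Without the near-identical arrays Acsl4 gave 0.52 in WT (SE 0.16), and the count of assembly genes in Pxr-/- was 0. Of 12 lipogenic regulators, 0 qualified in WT. Without the near-identical arrays 1 was higher there, Mid1ip1 (0.30, SE 0.12), against the same 3.12%. In Pxr-/- Insig1, which holds SREBP in the endoplasmic reticulum and is itself an SREBP target, was lower (-0.54, SE 0.17), and Nr1h3, the oxysterol receptor LXRα, was higher (0.55, SE 0.24), though not at that p without the near-identical arrays (0.58, SE 0.29).

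Cholesterol synthesis was the list with the most such genes. With PCN in Pxr-/-, all 12 genes were lower by sign and 10 of them at an unadjusted p under 0.05, against 3.95% of all probes. The median was -0.55, and Lss and Fdps, which make lanosterol and farnesyl pyrophosphate, stood at -0.69 (SE 0.20, adjusted p = 0.449) and -0.66 (SE 0.15, adjusted p = 0.266). The mean log2 signal of the list was 12.23 to 12.40 in Pxr-/- PCN and 12.52 to 13.07 in Pxr-/- CONT, without overlap. Of single probes, 2.8% showed no overlap in this comparison, a share that does not apply to a mean of 12 genes. Without the near-identical arrays 8 of 12 qualified, against 3.63% of all probes, with a median of -0.51. Between CONT mice, 9 of the 12 were higher in Pxr-/- than in WT by sign, with a median of 0.14. At an unadjusted p under 0.05, 4 were higher, against 6.17% of all probes. Without the near-identical arrays 1 qualified, against 4.49% of all probes. The smooth muscle genes given above were also lower with PCN in Pxr-/-, and their part was not tested. In WT, 10 of 12 were lower by sign, 1 of them at an unadjusted p under 0.05, with a median of -0.17 that was within 0.01 of 0 without the near-identical arrays. For the fatty acid genes the corresponding medians were -0.21 and -0.08.

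**Figure D3:**
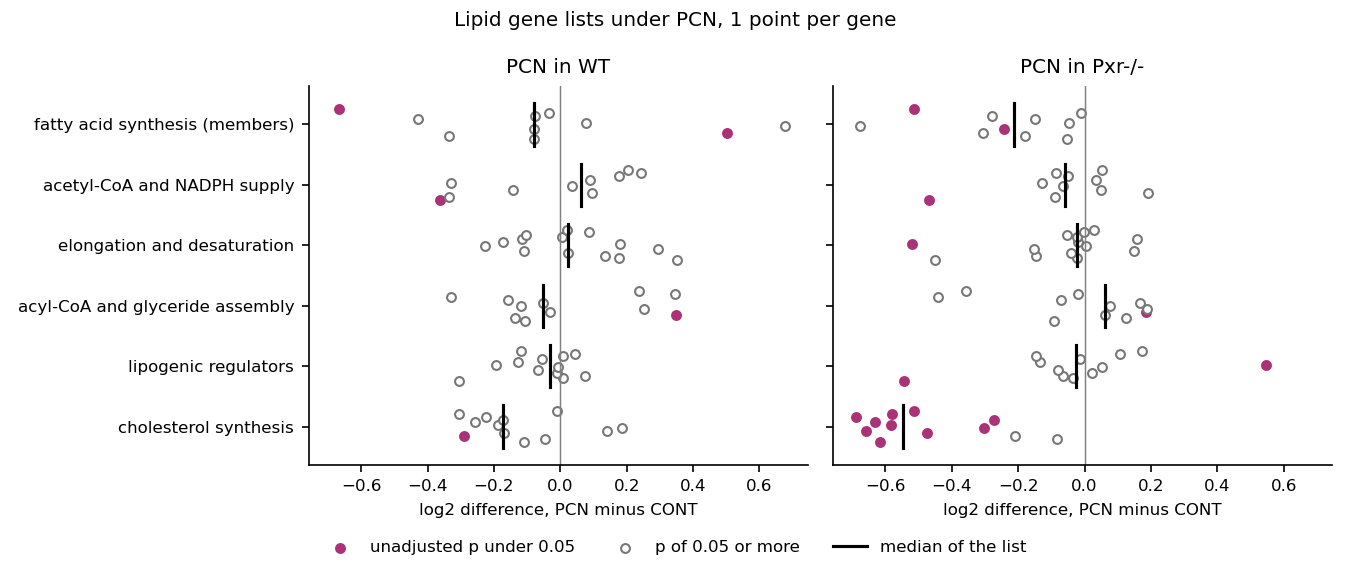
Log2 difference for PCN minus CONT (x axis) of each gene of 6 lipid lists (y axis) in WT and in Pxr-/-, from all 17 arrays, filled where the unadjusted limma p is under 0.05, with a black line at each list's median. Cholesterol synthesis in Pxr-/- stands apart with 10 of 12 points filled and a median of -0.55, and the 10 fatty acid synthesis genes have medians of -0.08 and -0.21.

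Levels of 4 of the enzymes followed the posterior Hox genes that mark position along the colon. The mean log2 signal of Hoxb13, Hoxd12, Hoxd13 and Hoxa13, which are higher towards the distal colon, ranged from 8.79 to 10.94 in WT CONT, 8.87 to 11.32 in WT PCN, 8.38 to 10.45 in Pxr-/- CONT and 6.54 to 11.36 in Pxr-/- PCN. Hoxd12 was well above background on 11 arrays and the other 3 genes on all 17. Over 15 profiles, with each near-identical pair averaged, Acly correlated with this mean at r = 0.81 (permutation p = 0.00013) and rho = 0.68 (p = 0.00643), and at r = 0.79 without the 2 profiles farthest from the median. Within baths r was 0.75 and 0.87 over 8 profiles each. WT PCN 3 is in bath 1 and its near-identical partner Pxr-/- CONT 2 in bath 2, so the values of the baths are not fully separate. Scd2 gave r = 0.73 (permutation p = 0.00153) and rho = 0.64 (p = 0.0123), with 0.75 without the farthest 2, but 0.38 in bath 1 and 0.89 in bath 2. Me1 ran the other way with r = -0.66 (permutation p = 0.00618) and rho = -0.73 (p = 0.00267), -0.78 without the farthest 2, and -0.90 and -0.52 within baths. Elovl6 gave r = -0.59 (permutation p = 0.0219) and rho = -0.64 (p = 0.0123), -0.67 without the farthest 2, and -0.90 and -0.44 within baths. These are 4 of 20 relations computed, 10 genes with 2 lists, and the p-values are not adjusted. The other 6 genes had r between 0.04 and 0.43. Among themselves, Acly and Scd2 correlated at r = 0.84 over these profiles, Elovl6 and Me1 at 0.59, and Acly and Me1 at -0.67. The part of the Hox gradient in the differences of these genes was not tested beyond adding the Hox mean to the fit. With PCN in WT that fit gave 0.42 for Elovl6, 0.50 for Me1 and -0.24 for Acly, in place of 0.50, 0.68 and -0.34. For the interactions of Elovl6 and Me1 it gave -0.74 and -1.21, in place of -0.81 and -1.35. For their genotype differences in CONT it gave 0.23 and 0.63, in place of 0.35 and 0.86. With PCN in Pxr-/- it gave -0.32 and -0.71 for them, in place of -0.31 and -0.68.

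**Figure D4:**
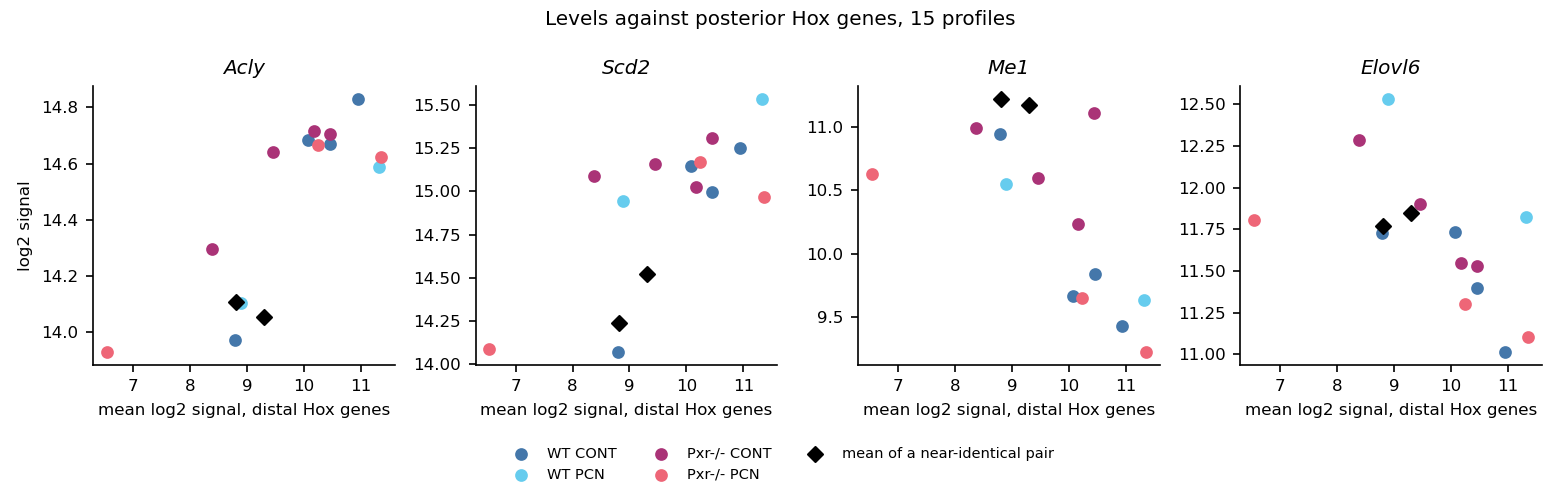
Log2 signal of Acly, Scd2, Me1 and Elovl6 (y axes, each with its own scale) against the mean log2 signal of the distal Hox genes (x axis) over 15 profiles, coloured by group, with diamonds for the mean of each near-identical pair. Acly and Scd2 rise to the right (r = 0.81 and 0.73), Me1 and Elovl6 descend (r = -0.66 and -0.59), and arrays of every group lie at both ends.

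Thrsp and Scd1 moved with genes of fat cells, which colon samples can carry from the mesentery. The mean log2 signal of 10 adipocyte genes ran from 9.79 to 10.92 in WT CONT, 8.95 to 10.23 in WT PCN, 9.26 to 10.43 in Pxr-/- CONT and 8.50 to 9.40 in Pxr-/- PCN. At an unadjusted p under 0.05, 5 of the 10 were lower and 1 higher with PCN in WT (2.17% and 2.49% of all probes), 5 were lower in Pxr-/- than in WT among CONT mice (6.52%), and 0 were lower with PCN in Pxr-/- (3.95%). Without the near-identical arrays these counts were 0 lower (1.55% of all probes) and 1 higher (3.12%), 5 lower (5.59%), and 1 lower (3.63%). Between genotypes in PCN mice, 0 were lower in Pxr-/- over all arrays (1.85%) and 3 without the near-identical ones (4.36%). The extremes with PCN in WT were Cfd, or adipsin (-1.92), and Adipoq, or adiponectin (-1.64). Without the near-identical arrays Cfd was -0.95 and Adipoq -0.78. Plin1 was well above background on 14 arrays and the other 9 genes on all 17. The list's mean differed by -0.82 for PCN in WT (exact permutation p = 0.143, and -0.35 with exact p = 0.533 without the near-identical arrays) and by -0.47 in Pxr-/- (exact p = 0.206). Over 15 profiles the correlation with this list was r = 0.72 (permutation p = 0.00221) and rho = 0.76 (p = 0.00155) for Scd1, falling to r = 0.51 without the 2 profiles farthest from the median, WT CONT 4 and 5. For Thrsp it was r = 0.62 (permutation p = 0.0135) and rho = 0.56 (p = 0.0354), falling to 0.33 without those 2, so that the relation rests on them. Within baths 1 and 2 r was 0.67 and 0.78 for Scd1 and 0.40 and 0.81 for Thrsp, with the same shared pair as above. With the adipocyte mean as a covariate, Thrsp gave -0.52 with PCN in WT and -0.43 in Pxr-/-, Scd1 gave -0.09 in WT and -0.03 for genotype in CONT, and Elovl6 gave 0.85 in WT. Beyond these values, the part of fat in the differences was not tested. Liver and pancreas genes varied more widely still. The liver mean was 10.77 on WT CONT 5, 8.22 on WT PCN 1, 8.24 on WT PCN 2 and 6.15 to 6.43 elsewhere. WT PCN 1 and 2 are the WT PCN arrays that remain without the near-identical ones. Liver genes with PCN in WT then had a median of 1.04, against 0.02 over all arrays. The pancreas mean was 17.67 on WT CONT 4, 15.37 on WT PCN 3, 15.33 on Pxr-/- CONT 2, 10.72 on WT PCN 1 and 6.41 to 6.76 elsewhere. The part of liver and pancreas was not tested.

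**Figure D5:**
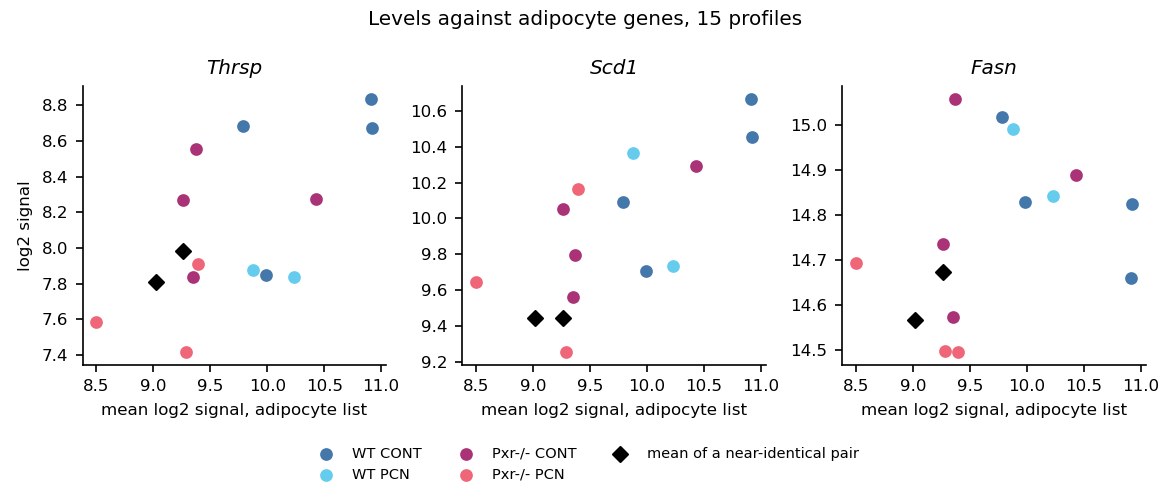
Log2 signal of Thrsp, Scd1 and Fasn (y axes, each with its own scale) against the mean log2 signal of 10 adipocyte genes (x axis) over 15 profiles, coloured by group, with diamonds for the near-identical pairs. Scd1 (r = 0.72) is highest on the arrays WT CONT 4 and 5 at the right. Thrsp (r = 0.62) is highest on WT CONT 4, followed by WT CONT 2, whose adipocyte mean is 9.79, and WT CONT 5. Fasn has r = 0.34.

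The genes whose profile came closest to each member, by Pearson correlation over the same 15 profiles, are given as a description, since all arrays share normalization and each partner is the best of many. Fasn went with Fdft1 (r = 0.85), Acat3 (0.84) and Idi1 (0.83), of which Fdft1 and Idi1 are enzymes of cholesterol synthesis. Acly went with Acss2 (0.94), the cytosolic enzyme that makes acetyl-CoA from acetate, then Methig1 (0.92) and Nt5e (0.92). Scd1 went with Adrb3 (0.85), Mrap (0.84) and Retn (0.84), all of them typical of fat cells. Elovl6 went with Ank3, Rnf165 and Sall2 (0.92, 0.92 and 0.90), Me1 with Tmco3, Ankrd26 and Tmem198 (0.94, 0.93 and 0.92), and Thrsp with Plxnd1, Sms and Macf1 (0.87, 0.83 and 0.80). Scd2 went with Asah1, Bola1 and B3gnt7 (0.87, 0.85 and 0.84), Acaca with Scn3a, Cfap126 and E030013I19Rik (0.85, 0.84 and 0.84), Srebf1 with Fmo2, Agfg2 and Cd34 (0.81, 0.80 and 0.80), and Pnpla3 with Prss34, 9230113P08Rik and Epb41 (0.85, 0.85 and 0.84).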

How the data were processed

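Total RNA of 17 colons was labelled with Cy3 and hybridised to one-colour Agilent arrays, and Agilent Feature Extraction 10.10.1.1 read the spots, per the labels. The scanner files that the authors deposited hold each spot's median signal intensity. A table of log2 values deposited by the authors holds 36695 probes after filtering, a correction for washing bath and CrossNorm normalization, per the methods; it chose 1 probe per gene and served as an alternative. Median intensity was taken to log2 and quantile-normalized between arrays, control and outlier spots were left out, and spots of 1 probe were averaged. Probes well above background on at least 4 arrays were tested, 38703 in all, with limma 3.58.1 in R 4.3.3, 1 linear model over the 4 groups with washing bath as a term, and Benjamini-Hochberg adjustment over all probes. A gene was called at FDR ≤ 0.05 with more than a 1.5-fold change. Exact two-sided permutation tests compared single genes, and correlations used 100000 permutations. Intervals use the moderated t distribution. Fitted differences of single members were given one by one where the unadjusted p was under 0.2, or where an interval or a change of arrays is of use. The members and the gene lists were chosen with earlier results of these data known. Other genes include the 3 most like each member. In the supply, elongation, assembly and regulator lists, genes were named after their values were seen, for an unadjusted p under 0.05. Not every such gene is named. In the cholesterol and adipocyte lists, the 2 with the largest difference were named for 1 comparison each. Probe coordinates are those of the scanner files (mm9), and gene names were updated through RefSeq for 32994 probes. Columns of no sample numbered 0. The fit was tested on simulated data. Alternatives changed the signal, normalization, filter, block, arrays and thresholds.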

Additional observations from a re-analysis of the deposited data

Results flagged for a closer look

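In 6 of the 40 sets of a gene and a group, 1 array lay far from the others by Dixon's test, and chance flags about 1 in 20. Fasn was 14.69 in Pxr-/- PCN 3, above the 14.50 to 14.52 of the other Pxr-/- PCN arrays. Acly was 14.59 in WT PCN 1, above the 14.05 to 14.10 of the other WT PCN arrays. Acaca was 11.82 in Pxr-/- PCN 2, below 12.04 to 12.06, and Scd2 was 14.20 in Pxr-/- CONT 2, below 15.03 to 15.31, and both of these arrays belong to the near-identical ones. Elovl6 was 12.53 in WT PCN 2, above 11.80 to 11.86. Thrsp was 7.85 in WT CONT 3, below the 8.67 to 8.84 of the other WT CONT arrays. No cause of these readings was tested.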

How the results depend on the processing

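Of the 18 differences with an unadjusted p under 0.2, 13 kept their sign under all alternatives, and none passed the FDR and fold thresholds under any. The 5 that changed sign did so within a single washing bath. Within bath 1, genotype in CONT gave 0.14 for Scd1 and 0.15 for Thrsp. Within bath 2, PCN in WT gave 0.27 for Acly and -0.75 for Me1, and the interaction of Me1 was 0.041. All values of PCN in WT, genotype under PCN and the interaction within bath 2, counts included, rest on 1 WT PCN array. The other 32 differences, among them PCN in WT for Fasn, Scd2 and Srebf1 and the interaction of Thrsp, passed under no alternative, and 28 changed sign at least once. The cause was not tested.

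Counts of genes called over the whole array moved more. For PCN in Pxr-/-, 2 genes were called over all 17 arrays, Selp (1.40, adjusted p = 0.0469) and Gm15998 (1.25). The count was 0 with the processed signal, normexp, no filter, slide as a fixed block, within bath 1, within bath 2, the replicate block, without Pxr-/- CONT 2 and Pxr-/- PCN 2, and with either list as a covariate. It was 1 without the bath term and with slide as a random block, 19 with the groups of the comparison alone, 18 without the 4 near-identical arrays and 26 without WT PCN 3 and 4. For PCN in WT, where 0 genes were called, it was 18 within bath 2, 18 without the 4 arrays and 36 without WT PCN 3 and 4. For genotype in CONT it was 8 with its own groups alone and 2 without WT PCN 3 and 4. For genotype under PCN it was 8 within bath 2, 8 without the 4 arrays and 15 without WT PCN 3 and 4. For the interaction it was 1, 1 and 3 under the same settings. Leaving out 1 array at a time gave 0 to 16 for PCN in WT, 0 to 23 for PCN in Pxr-/- (23 without WT PCN 3), 0 to 2 for genotype in CONT and 0 to 1 for the interaction.

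The median of the 10 genes moved by more than the spread between replicates as follows. For PCN in WT it was -0.23 within bath 1, 0.25 within bath 2, and 0.10 without the 4 arrays or without WT PCN 3 and 4. For PCN in Pxr-/- it was -0.37 within bath 1. For genotype in CONT it was 0.13 with slide as a fixed block. For genotype under PCN it was -0.28 within bath 2 and -0.31 without the 4 arrays. For the interaction it was -0.27 within bath 2, -0.19 without the 4 arrays and -0.18 without WT PCN 3 and 4. Leaving out 1 array gave -0.20 to 0.0067 for PCN in WT, -0.28 to -0.079 for PCN in Pxr-/-, -0.24 to 0.0013 for genotype under PCN and -0.12 to 0.13 for the interaction.

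The labels do not say whether replicate numbers pair the samples, and these values do not settle it. Over 22 same-numbered pairs the correlation of deviations was -0.33 to 0.49 with a median of 0.10, and 11 were over 0.1. Over 86 other pairs it was -0.49 to 0.62 with a median of -0.05, and 30 were over 0.1. With the replicate block, PCN gave -0.65 for Thrsp, 0.51 for Elovl6 and 1.01 for Me1 in WT, none of them passing. Signal over background limits Pnpla3, whose main probe was well above background on 14 of 17 arrays.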
